A study of Mus musculus with 6 samples.

Results

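The genes described here encode enzymes and membrane proteins of the lysosome, together with the TFEB family of transcription factors, in mouse embryonic stem cells depleted of the long noncoding RNA Panct1. The list held 41 genes chosen by name from their known place in the lysosome, with earlier results of these data known. Of these, 40 had a probe set of their own among the 18193 genes measured. The exception was Cd63, a tetraspanin of late endosomes, for which no probe set was assigned to this gene alone. Genes with several probe sets are represented by the brightest one, judged on the mean of the 6 arrays. The list fell into 12 cathepsins and other proteases, 12 glycosidases and enzymes of glycosaminoglycan breakdown, 6 genes of lipid breakdown, 8 membrane proteins and 3 genes of the TFEB family.

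Total RNA was profiled on 6 Affymetrix whole-genome mouse expression arrays, and each value is a log2 RMA signal per probe set. The Panct1 knockdown group was 3 arrays of Oct4-Gip ES cells, a stem cell line with a green fluorescent reporter under Oct4 control, harvested 72 hours after reverse transfection with 800 ng of an esiRNA against Panct1. The Luciferase control group was 3 arrays of the same line, given the same amount of an esiRNA against Luciferase, a sequence that mouse cells lack, for the same time. An esiRNA is an enzymatically cut pool of short interfering RNAs, both groups were grown with serum and LIF, and 60000 cells were transfected per well. No label says that replicates were separate cultures, so p-values here measure only how far these samples scatter, and that scatter may be technical. No probe set was named as Panct1, so the depletion itself was not measured here.

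Array medians lay between 6.07 and 6.09 and lower quartiles between 4.65 and 4.70. All 8 stem cell markers examined, Pou5f1, Sox2, Nanog, Zfp42, Esrrb, Dppa5a, Tdgf1 and Utf1, had mean signals of at least 10.20 in knockdown and 10.70 in control, far above the lower quartile. Of these 4 fell, Esrrb by 0.50, Zfp42 by 0.42, Pou5f1 by 0.24 and Utf1 by 0.20, and 0 rose, with list means of 12.82 to 12.85 on knockdown arrays and 12.97 to 13.06 on control arrays. Of the markers of other cells, 9 of 11 trophectoderm genes rose, while Elf5 (-0.19) and Hand1 (0.10) did not pass. The mean log2 signal over that list was 8.67 on every knockdown array, against 7.43 to 7.50 on control arrays. Macrophage and blood markers had a list mean of 5.21 to 5.23 on knockdown arrays and 5.23 to 5.26 on control arrays. In limma 0 of these 10 passed the threshold, with 2 at an unadjusted p under 0.05. Among 8 fibroblast markers Col3a1 and Col1a1 rose, with list means of 5.81 to 5.84 on knockdown arrays and 5.67 to 5.77 on control arrays. Among 10 primitive and visceral endoderm markers 2 rose and 3 fell, with list means of 6.28 to 6.41 on knockdown arrays and 6.40 to 6.46 on control arrays. At a limma adjusted p under 0.05, 50% of stem cell, 81.8% of trophectoderm, 50% of endoderm and 25% of fibroblast markers were called. Of all genes 24.2% were called, near the fibroblast share. The part of other cell types in the results below was not tested, and in bulk RNA fewer cells of a type cannot be told apart from less RNA per cell.

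Lysosomes are acidic organelles in which many hydrolases break down proteins, sugar chains and lipids that arrive by endocytosis or autophagy. Most of these enzymes are made in the endoplasmic reticulum, tagged with mannose 6-phosphate in the Golgi and carried to the lysosome by receptors, while heavily glycosylated membrane proteins line and protect its wall. TFEB, TFE3 and MITF are related basic helix-loop-helix leucine zipper factors. In human cells TFEB was found to bind a short element built on the E-box in promoters of lysosomal genes, and the kinase mTORC1 holds it in the cytoplasm while nutrients are plentiful.

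Of the 40 genes, 12 were higher and 6 lower in Panct1 knockdown at a limma adjusted p under 0.05, which is 45.0% called, against 24.2% of all genes tested. Over all genes 12.9% rose and 11.3% fell. The 40 genes averaged a log2 signal of 9.12 in Panct1 knockdown and 9.07 in Luciferase control, against 7.51 and 7.50 over all genes. The shares of all genes given here were not matched for signal, and the members were chosen with earlier results of these data known. The largest falls were in Cd68 and Manba, both over 2-fold, and the largest rise was in Ctsc, a little under 2-fold. A change of at least 1.5-fold that also passed was found for 5 of the 40 genes, Cd68, Manba, Glb1, Ctsf and Ctsc, against 6.74% of all genes. Knockdown and control arrays were fully separate for 26 of the 40 genes, against 38.3% of all genes. The median difference over the 40 genes was 0.12 on the log2 scale, against -0.02 over all genes. The count of rises was 7 without Panct1 knockdown replicate 2 and 7 without Luciferase control replicate 1, and 5 to 7 fell on leaving out any array.

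**Figure D1:**
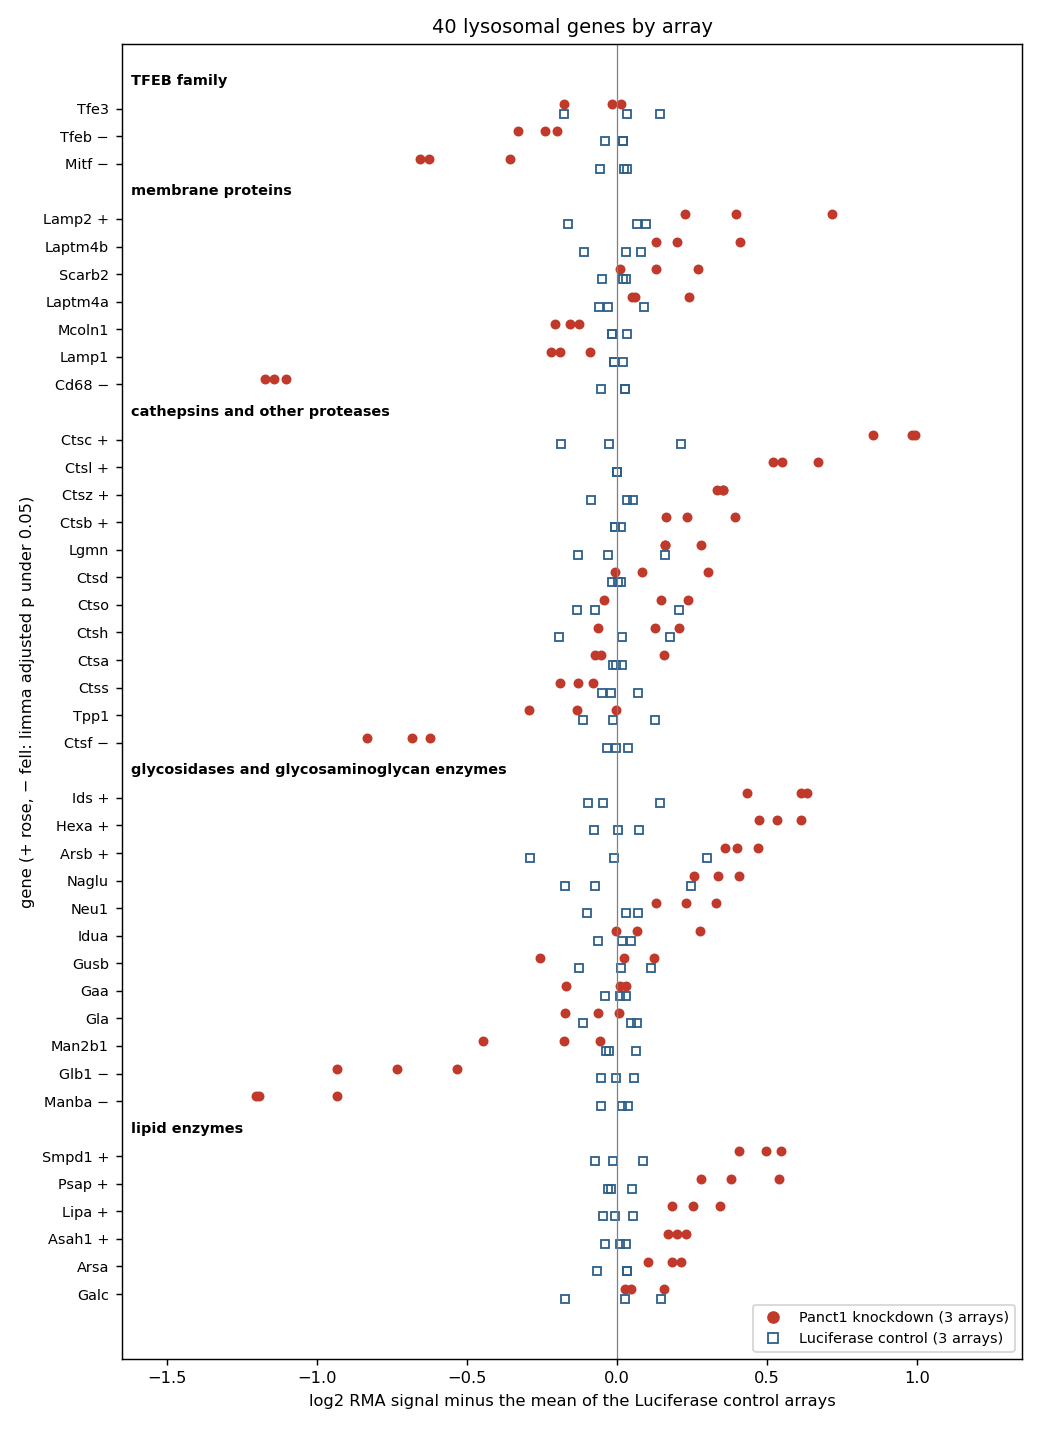
Log2 RMA signal of 40 lysosomal genes on each array (horizontal axis), as the distance from the mean of the 3 Luciferase control arrays, with genes on the vertical axis in 5 groups. Filled circles are the 3 Panct1 knockdown arrays and open squares the 3 Luciferase control arrays; all 6 genes of lipid breakdown lie to the right of 0 by their means, while the means of Cd68 and Manba lie more than 1 to its left.

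The transcription factors of the list were lower or did not pass. Mitf, the family member best known from melanocytes, had log2 signals of 8.09, 7.79 and 7.82 in Panct1 knockdown, against 8.48, 8.47 and 8.39 in Luciferase control. All 3 knockdown arrays lay below the controls, and Mitf fell by 0.55 (SE 0.09; limma adjusted p = 0.00219). Its second, dimmer probe set differed by -0.28 without passing over all probe sets. Tfeb, the factor after which the family is named, read 8.02, 7.89 and 7.98 in knockdown, against 8.24, 8.18 and 8.24 in control. The groups did not overlap, and Tfeb fell by 0.26 (SE 0.06; limma adjusted p = 0.0187). That call was lost without Panct1 knockdown replicate 2 (adjusted p = 0.0850) and without Luciferase control replicate 1 (0.0686) or 3 (0.0560), within 0.00397 to 0.0850 over 17 settings. Tfe3 gave 10.34, 10.50 and 10.53 in knockdown, against 10.55, 10.34 and 10.66 in control, overlapping groups with a difference of -0.06 (95% interval -0.27 to 0.15). With 3 arrays a group the interval for Tfe3 holds a fall as large as that of Tfeb.

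Promoter windows from RefSeq (build GRCm38.p6, 250 bases before to 50 after each listed start) were searched for the E-box CACGTG, which reads the same on both strands, and for the longer TCACGTG on either strand, of which CACGTG is a part. Windows were listed for 37 of the 41 genes, and Asah1, Ctsb, Ctsh and Laptm4b had none. CACGTG stood in 12 of 45 windows (26.7%), against 7.15% of all 32851 windows, and TCACGTG in 10 (22.2%), against 3.77% of all windows. Windows of genes tested on the arrays held them in 8.72% and 4.95%. The members were chosen for their function, with earlier results of these data known, so these shares describe this list and carry no test. Of the 3 TFEB family genes themselves 0 held CACGTG in any of their 8 windows. The stretches below are the 100 bases directly before the start, read 5′ to 3′ on the strand of the gene, with each CACGTG in capitals. Lamp1, Mcoln1, Ctsd, Naglu, Glb1 and Ctsf are shown as examples from the membrane proteins, proteases and glycosidases, called and not called, of genes that hold the E-box there, as Ctsa, Lgmn and Arsa also do, and Manba, Cd68 and Ctsc because they changed the most without it.
Lamp1: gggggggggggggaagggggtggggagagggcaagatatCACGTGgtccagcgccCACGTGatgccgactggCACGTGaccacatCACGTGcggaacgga
Mcoln1: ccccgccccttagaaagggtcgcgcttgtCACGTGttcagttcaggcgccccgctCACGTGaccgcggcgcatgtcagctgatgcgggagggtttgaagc
Ctsd: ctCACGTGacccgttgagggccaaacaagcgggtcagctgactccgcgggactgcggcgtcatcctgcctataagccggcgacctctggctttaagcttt
Naglu: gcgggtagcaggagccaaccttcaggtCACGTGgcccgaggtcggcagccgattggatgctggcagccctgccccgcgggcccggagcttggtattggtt
Glb1: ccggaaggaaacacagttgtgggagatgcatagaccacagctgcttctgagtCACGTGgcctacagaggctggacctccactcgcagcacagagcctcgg
Ctsf: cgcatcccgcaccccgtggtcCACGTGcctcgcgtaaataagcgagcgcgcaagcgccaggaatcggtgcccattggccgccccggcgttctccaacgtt
Manba: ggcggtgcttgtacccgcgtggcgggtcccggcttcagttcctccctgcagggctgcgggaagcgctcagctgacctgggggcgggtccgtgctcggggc
Cd68: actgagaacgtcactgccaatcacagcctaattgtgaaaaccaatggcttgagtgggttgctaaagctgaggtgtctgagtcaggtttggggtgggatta
Ctsc: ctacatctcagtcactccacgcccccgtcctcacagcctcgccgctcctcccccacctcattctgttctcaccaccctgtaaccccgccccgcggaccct

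The stretch of Lamp1 is chr8:13159061-13159160 on the plus strand, with 4 copies of the E-box whose first bases lie 61, 45, 28 and 15 bases before the start. That of Mcoln1 is chr8:3500419-3500518, plus strand, with 2 copies, and that of Ctsd is chr7:142387828-142387927, minus strand, with 1 copy and a further one 245 bases before the start. Naglu is shown at chr11:101069994-101070093, Glb1 at chr9:114400978-114401077 and Ctsf at chr19:4855065-4855164, all on the plus strand with 1 copy each. The copy in Ctsf is not part of the longer motif, and neither is the one of Ctsl, 236 bases before its start. Manba is shown at chr3:135485511-135485610, plus strand, Cd68 at chr11:69666171-69666270, minus strand, and Ctsc at chr7:88277985-88278084, plus strand. Among the other holders Gla had 2 copies, Ctsa 2, and Gaa, Lgmn and Arsa 1 each.

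Of the 12 holders of CACGTG, 1 rose (Ctsl), 2 fell (Glb1 and Ctsf) and 9 did not pass, with a median difference of -0.02. Those 3 calls of 12 are a share near the 24.2% of all genes called. Of the 24 measured genes whose windows lacked it, 9 rose, 4 fell and 11 did not pass, with a median of 0.12. That is a larger share called than the 24.2% of all genes. For the longer motif 0 of 10 holders rose and 1 fell, against 10 and 5 of the 26 without it. These counts were not tested against each other, and some rest on calls near the threshold. Of the CACGTG holders that did not pass, Naglu passed in 8 other settings, Lamp1 and Mcoln1 in 2 each and Lgmn in 1. Of the genes whose windows lacked it, Gusb and Neu1 passed in 2 each, and Man2b1 and Galc in 1 each. Among the called genes whose windows lacked it, Arsb lost its call in 11 settings, Lipa in 9, Lamp2 in 6 and Tfeb in 5. Holders and others both spanned falls and rises, from -0.73 to 0.58 among holders and from -1.14 to 0.94 among the others. A match is a run of letters in a window, and binding was not measured.

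**Figure D2:**
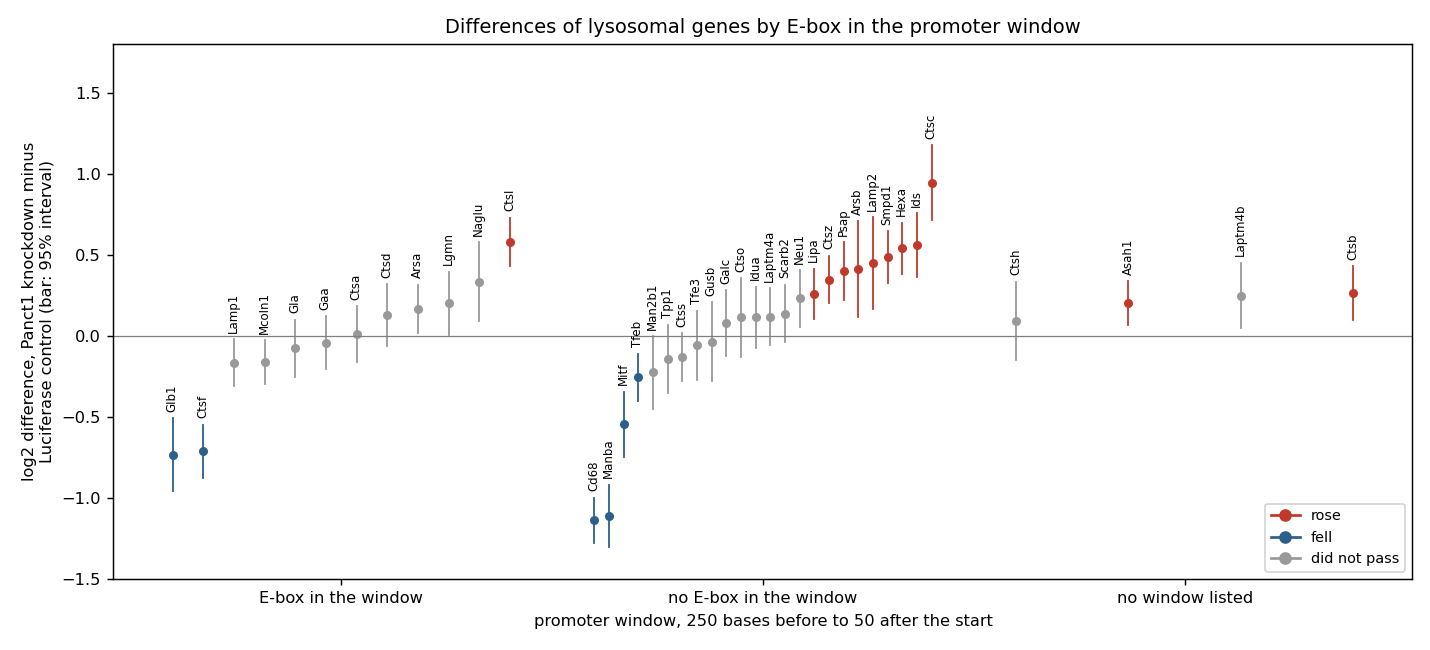
Log2 difference of Panct1 knockdown minus Luciferase control (vertical axis, bar the 95% interval) for the 40 measured genes, in 3 columns by whether the promoter window holds the E-box. Red genes rose, blue genes fell and grey genes did not pass. Of 12 genes with the E-box 3 are coloured, near the 24.2% of all genes called, and of 24 without it 13, a larger share.

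Among 7 measured membrane proteins 1 rose, 1 fell and 5 did not pass (28.6% called, near the 24.2% of all genes). Cd68, a glycoprotein of the late endosome wall used as a macrophage marker, had signals of 8.04, 7.97 and 8.00 in Panct1 knockdown, against 9.17, 9.17 and 9.09 in Luciferase control. No value of either group came near the other, and Cd68 fell by 1.14 (SE 0.06; limma adjusted p = 7.54e-06), so that it was 2.20-fold lower. The macrophage genes Ptprc, Aif1 and Itgam had means below the lower quartile in both groups, and 7 of the 10 macrophage and blood markers had negative differences. Fcer1g (-0.20, adjusted p = 0.0522 in limma) and Tyrobp (-0.18, adjusted p = 0.0884) were lower on every knockdown array without passing, and their part in the result was not tested. The other 8 differed by -0.09 to 0.20 with overlapping arrays. Lamp2, a main wall protein that also serves in autophagy, gave 9.45, 9.62 and 9.94 in knockdown, against 9.29, 9.06 and 9.32 in control. Its groups lay close to each other without overlap, and it rose by 0.45 (SE 0.13; limma adjusted p = 0.0308). The 4 probe sets of Lamp2 split, with 2 risen by 0.44 and 0.45 and the others at -0.09 and -0.16. Which transcript each of them reads was not analysed here. The call for Lamp2 ended when knockdown replicate 2, knockdown replicate 3, control replicate 1 or control replicate 2 was dropped (adjusted p between 0.0616 and 0.103) and with the mean of its probe sets (0.113), within 0.00981 to 0.113 over 17 settings.

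Lamp1, the other main wall protein, had 12.66, 12.53 and 12.56 in knockdown, against 12.74, 12.77 and 12.74 in control. Every knockdown array was lower, yet the difference of -0.17 did not pass (limma adjusted p = 0.0925). Mcoln1, the calcium channel TRPML1, read 8.82, 8.87 and 8.90 in knockdown, against 9.06, 9.01 and 9.01 in control, a difference of -0.16 (adjusted p = 0.0841 in limma). A dimmer probe set of Mcoln1 fell by 0.23 over all probe sets. Mcoln1 passed with array weights and with the most variable probe set (limma adjusted p within 0.0388 to 0.378 over 17 settings). Laptm4b, a small membrane protein of late endosomes, stood at 12.29, 12.08 and 12.01 in knockdown, against 11.77, 11.96 and 11.91 in control. Its 3 probe sets differed alike, by 0.25 to 0.27, and none passed, though it did with the mean of probe sets (limma adjusted p = 0.0355, within 0.0276 to 0.241 over 17 settings). Its relative Laptm4a differed by 0.12, and Scarb2, which carries glucocerebrosidase to the lysosome, by 0.14, both with overlapping arrays.

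Of the 12 proteases 4 rose, 1 fell and 7 did not pass (41.7% called, against 24.2% of all genes), with a median difference of 0.12. Ctsc, an aminopeptidase that activates serine proteases of immune granules, had 9.92, 9.91 and 9.78 in knockdown, against 8.74, 9.14 and 8.90 in control. The lowest knockdown array exceeded the highest control by more than the control arrays' own range, and Ctsc rose 1.92-fold (log2 difference 0.94, SE 0.10; limma adjusted p = 2.52e-04). Its other probe sets, with signals below the lower quartile, differed by 0.05 and 0.07. Ctsl, the endopeptidase cathepsin L, had 13.04, 13.07 and 13.19 in knockdown, against 12.52 on all 3 control arrays. It rose 1.49-fold (log2 difference 0.58, SE 0.06; limma adjusted p = 3.02e-04) from the brightest of its probe sets, whose suffix marks it as shared by transcripts of 1 gene. The second probe set, far dimmer at 4.87, 4.81 and 4.76 in knockdown and 4.95, 5.00 and 4.87 in control, differed by -0.13 and did not pass.

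Ctsz, a carboxypeptidase, read 12.01, 11.99 and 12.01 in knockdown, against 11.69, 11.57 and 11.71 in control. It rose by 0.35 (limma adjusted p = 0.00441), and all 3 of its probe sets passed, at 0.35 to 0.36. No other called gene with several probe sets had all of them past the threshold. Ctsb, cathepsin B, had 10.44, 10.28 and 10.21 in knockdown, against 10.04, 10.04 and 10.06 in control, and rose by 0.26 (limma adjusted p = 0.0298). The 5 probe sets of Ctsb ranged from -0.22 to 0.26 and 0 passed over all probe sets. Its call held without replicate 3 of the Panct1 knockdown, ended when any of the remaining 5 arrays was dropped (adjusted p between 0.0663 and 0.0878) and ended with the mean of probe sets (0.573), within 0.0135 to 0.573 over 17 settings.

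Ctsf, cathepsin F, moved the other way, with 7.89, 7.83 and 7.68 in knockdown, against 8.55, 8.48 and 8.51 in control. It fell by 0.71 (SE 0.07; limma adjusted p = 1.83e-04), 1.64-fold lower, with a dimmer second probe set at -0.02. The remaining proteases differed by -0.14 to 0.20 and did not pass. Among them were Ctsd, the aspartic protease cathepsin D (0.13), Lgmn, which cuts after asparagine (0.20), Tpp1, a tripeptidyl peptidase (-0.14), Ctsh (0.09) and Ctso (0.11). Lgmn passed as risen without Luciferase control replicate 2 (limma adjusted p = 0.0384, within 0.0384 to 0.369 over 17 settings). Ctss, cathepsin S of antigen-presenting cells, was below the lower quartile in both groups, at 4.01 ± 0.06 in knockdown and 4.14 ± 0.06 in control (SD, n = 3 each). Ctsd on Panct1 knockdown replicate 1 (11.35) stood above the other knockdown arrays (11.13 and 11.04). Over the list 24 of 40 genes had their highest knockdown value on that array, and 20 had their lowest on replicate 3. The list averaged 9.158, 9.105 and 9.091 on Panct1 knockdown replicates 1, 2 and 3, against 7.5126, 7.5055 and 7.525 over all genes. Such counts were not made over all genes.

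**Figure D3:**
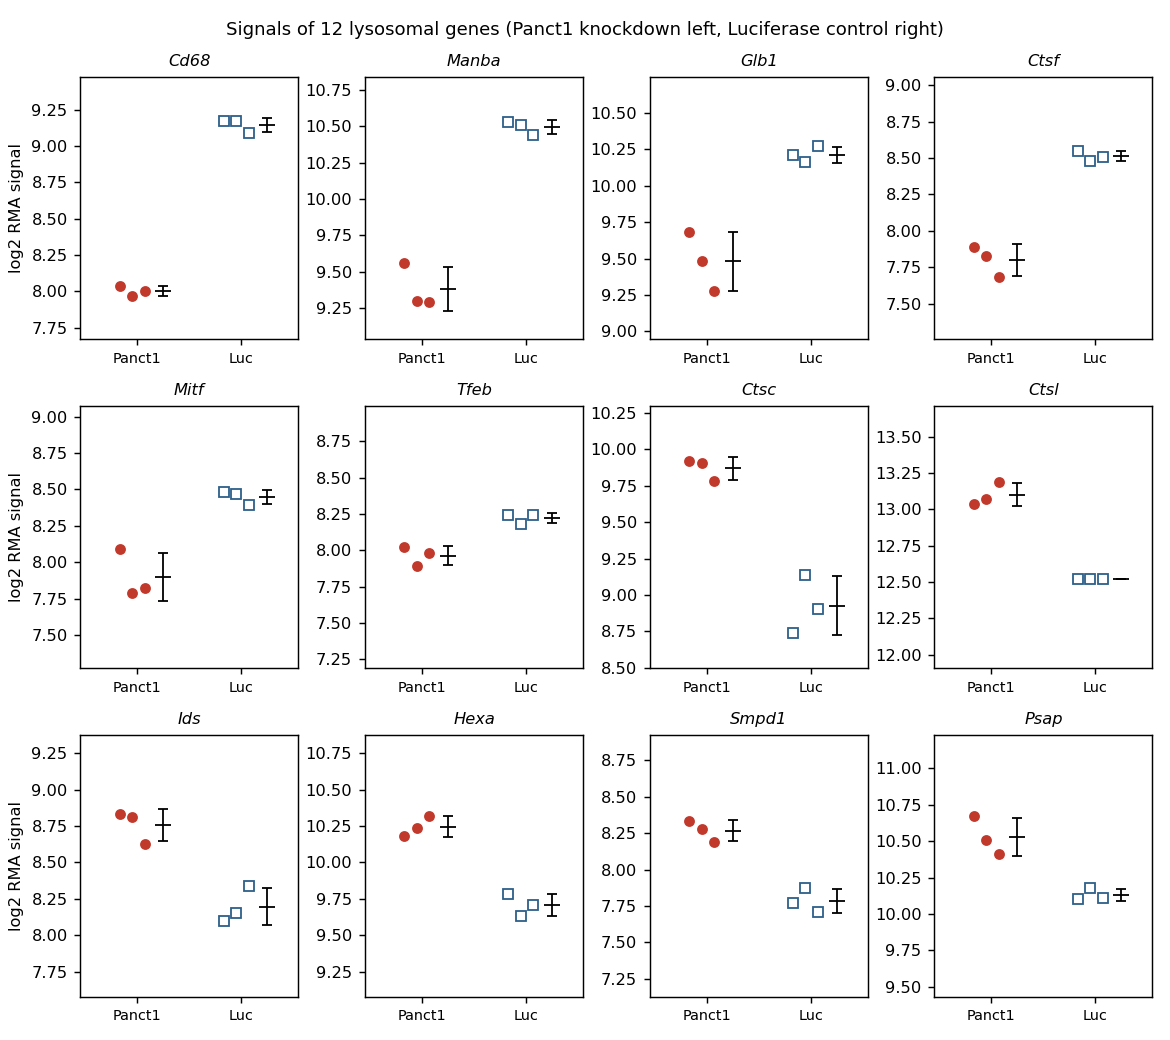
Log2 RMA signal (vertical axis, each panel spanning the same width) of 12 genes on the 3 Panct1 knockdown arrays (filled circles, left) and the 3 Luciferase control arrays (open squares, right), with mean and SD beside the points. Points do not overlap between groups in any panel; the first 6 genes are lower in knockdown and the last 6 higher.

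Enzymes that cut sugar chains moved in both directions, with 3 risen, 2 fallen and 7 not past the threshold among 12. That is 41.7% called, against 24.2% of all genes. Manba, the beta-mannosidase that cuts the innermost mannose of N-glycans, had 9.56, 9.30 and 9.29 in knockdown, against 10.53, 10.51 and 10.44 in control. It fell by 1.11 (SE 0.08; limma adjusted p = 4.24e-05), 2.16-fold lower, with 1 probe set and no overlap. Glb1, the acid beta-galactosidase used as a stain for senescent cells, read 9.68, 9.48 and 9.28 in knockdown, against 10.21, 10.16 and 10.27 in control. It fell by 0.73 (SE 0.10; limma adjusted p = 8.53e-04), and its knockdown arrays were spread more widely (SD 0.20) than its controls (SD 0.06). In lysosomes Glb1 works in a complex with the carboxypeptidase Ctsa, which protects it, and the sialidase Neu1. Ctsa differed by 0.01 (95% interval -0.16 to 0.18), an interval that excludes a fall as large as that of Glb1. Neu1 differed by 0.23 and did not pass (limma adjusted p = 0.0613). It did once Panct1 knockdown replicate 1 was left out (0.0415, within 0.0360 to 0.248 over 17 settings).

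Hexa, the alpha subunit of beta-hexosaminidase, which degrades ganglioside GM2, had 10.18, 10.24 and 10.32 in knockdown, against 9.78, 9.63 and 9.71 in control. It rose 1.45-fold (log2 difference 0.54, SE 0.07; limma adjusted p = 6.66e-04). Ids, the iduronate sulphatase of heparan and dermatan sulphate breakdown, gave 8.83, 8.81 and 8.63 in knockdown, against 8.10, 8.15 and 8.34 in control. It rose by 0.56 (SE 0.09; limma adjusted p = 0.00178) in the brightest of its 6 probe sets, while the others ranged from -0.06 to 0.19, and with their mean the call was lost (adjusted p = 0.114, within 3.90e-04 to 0.114 over 17 settings). Idua, the enzyme of the next step of the same pathway, differed by 0.11 and did not pass. Arsb, a sulphatase of dermatan and chondroitin sulphate, had 6.49, 6.45 and 6.56 in knockdown, against 5.80, 6.39 and 6.08 in control. It rose by 0.41 at the very edge of the threshold (limma adjusted p = 0.04997), and the call held without control replicate 2 but ended when any of the remaining 5 arrays was dropped, with adjusted p from 0.00646 to 0.180 over 17 settings.

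Naglu, which removes N-acetylglucosamine from heparan sulphate, stood just outside the threshold, with 5.92, 5.99 and 5.84 in knockdown and 5.51, 5.83 and 5.41 in control. Its difference of 0.33 (limma adjusted p = 0.0517) passed without Luciferase control replicate 2 (0.00612) and under 7 other settings of 17, with 0.157 as the highest. Man2b1, the lysosomal alpha-mannosidase, differed by -0.23 and passed as fallen without Panct1 knockdown replicate 1 (limma adjusted p = 0.0486, within 0.0486 to 0.339 over 17 settings). Gla, the alpha-galactosidase that acts on globotriaosylceramide, differed by -0.08, Gaa, the acid glucosidase of glycogen, by -0.04, and Gusb, the beta-glucuronidase, by -0.04, all with overlapping arrays. A dimmer probe set of Gusb read 7.18, 7.26 and 7.26 in knockdown, against 7.64, 7.86 and 7.75 in control, and fell by 0.52 (limma adjusted p = 0.00253 over all probe sets). The brighter one covered 8.48 to 8.86 in knockdown and 8.61 to 8.85 in control, so the call for Gusb depends on the probe set.

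All 6 genes grouped here under lipid breakdown had positive differences, with a median of 0.23. Of these, 4 rose, 0 fell and 2 did not pass (66.7% called, against 24.2% of all genes). The shared direction depends on the grouping. Hexa, Gla and Glb1, which also cut sugars from lipids, were placed with the glycosidases and differed by 0.54, -0.08 and -0.73. Smpd1, the acid sphingomyelinase, had 8.33, 8.28 and 8.19 in knockdown, against 7.77, 7.87 and 7.71 in control. It rose by 0.48 (SE 0.07, limma adjusted p = 0.00131), with a dimmer second probe set at 0.23 that did not pass over all probe sets. Psap, the precursor of the saposins that present sphingolipids to their hydrolases, read 10.67, 10.51 and 10.41 in knockdown, against 10.10, 10.18 and 10.11 in control. It rose by 0.40 (SE 0.08, limma adjusted p = 0.00586), with its second probe set at 0.30, which did not pass over all probe sets. Lipa, the acid lipase of cholesteryl esters, had 8.45, 8.36 and 8.29 in knockdown, against 8.06, 8.16 and 8.10 in control, and rose by 0.26 (limma adjusted p = 0.0227). The dimmer probe sets of Lipa differed by 0.06 and 0.16 and did not pass over all probe sets. Asah1, the acid ceramidase that takes the product of Smpd1 further, had 11.19, 11.22 and 11.25 in knockdown, against 11.05, 10.98 and 11.03 in control, and rose by 0.20 (limma adjusted p = 0.0396). The calls for Lipa and Asah1 were the least secure of the 4. That for Lipa ended when knockdown replicate 1, knockdown replicate 2, control replicate 1 or control replicate 3 was dropped (adjusted p between 0.0609 and 0.0867, within 0.00744 to 0.745 over 17 settings). That for Asah1 was lost on leaving out any array (0.0588 to 0.118, within 0.0115 to 0.126). Without 1 array the group counted 2 or 3 risen genes.

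Arsa, which removes sulphate from sulphatide, differed by 0.17 with no overlap of the arrays and did not pass (limma adjusted p = 0.102). Galc, the galactosylceramidase, differed by 0.08 in its brightest probe set, at 5.13 ± 0.07 in knockdown and 5.05 ± 0.16 in control (SD, n = 3 each). Another of its 3 probe sets, at 4.70, 4.58 and 4.65 in knockdown and 5.12, 4.94 and 4.82 in control, fell by 0.32 (limma adjusted p = 0.0445 over all probe sets). Both lay close to the lower quartile.

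Over all 84 probe sets of the 40 genes, 12 rose and 9 fell when fitted and adjusted over all 45037 probe sets, of which 14.6% were called. No gene had probe sets called in both directions. Of 12 called genes with several probe sets, 5 had probe sets on both sides of 0, namely Arsb, Ctsb, Ctsl, Ids and Lamp2. The 6 genes Asah1, Cd68, Glb1, Hexa, Manba and Tfeb were called from the single probe set they had.

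**Figure D4:**
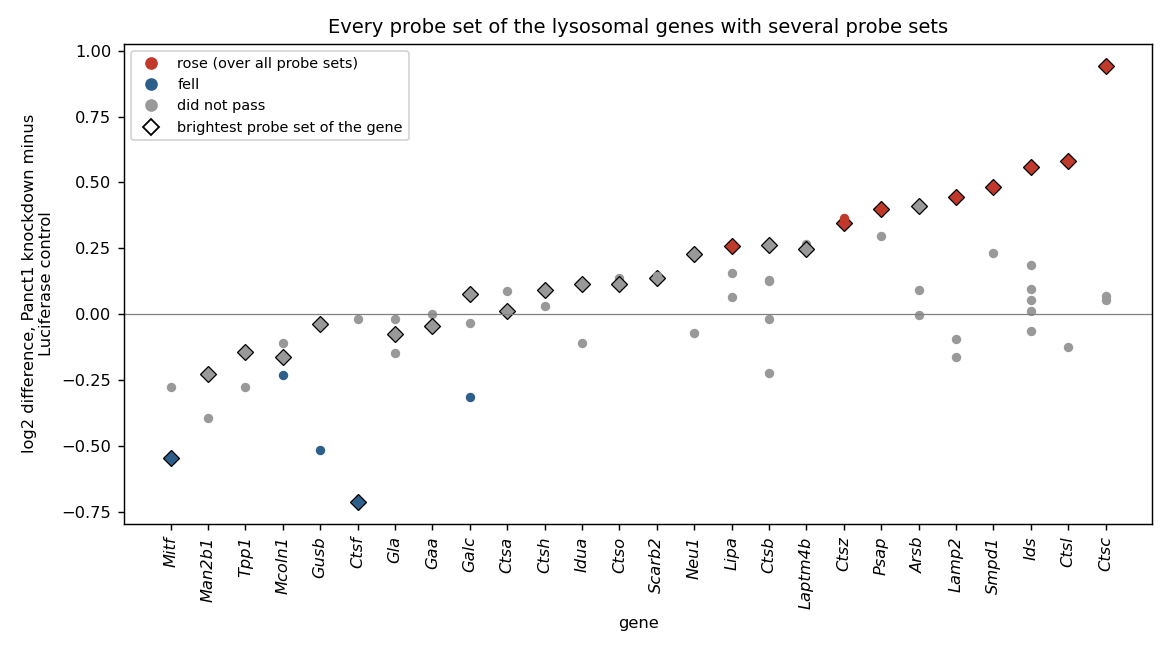
Log2 difference of Panct1 knockdown minus Luciferase control (vertical axis) for each probe set of the 26 genes that have several, by gene (horizontal axis). Diamonds are the brightest probe set of each gene, red ones rose, blue ones fell and grey ones did not pass over all probe sets; the 3 probe sets of Ctsz coincide, while those of Ids, Lamp2 and Ctsl are spread.

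Further lists covered the proteins that build, supply and regulate the lysosome, with 25 risen and 21 fallen among 132 measured genes (34.8% called, against 24.2% of all genes). The list labelled cathepsin inhibitors, which mixed cystatins with the serpins Serpinb9 and Serpinb6a, had the highest median difference of these further lists, 0.67. Of its 5 measured genes 4 rose and 0 fell (80% called). Serpinb9, an inhibitor of granzyme B, rose by 1.42, Serpinb6a by 0.79 and Cst3, the secreted cystatin C, by 0.67. Cstb, cystatin B, rose by 0.32, and Cst6 at 0.27 did not pass (limma adjusted p = 0.0705). Of 21 autophagy genes 5 rose and 6 fell (52.4% called), with a median of -0.04, and 4 rose and 4 fell with the mean of probe sets. Gabarapl1, which tags autophagosome membranes, rose by 1.18 and Atg3, which attaches such tags, by 0.51, while Gabarapl2, a close relative of Gabarapl1, fell by 0.43.

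Genes that carry enzymes to the lysosome rose in 4 and fell in 3 of 19 cases (36.8% called, against 24.2% of all genes). M6pr, the cation-dependent mannose 6-phosphate receptor, rose by 0.53, Cln6, an endoplasmic reticulum protein that aids export of lysosomal enzymes, rose by 0.73, and Ap1g1, an adaptor subunit, fell by 0.40. The larger receptor Igf2r differed by 0.32 and did not pass (limma adjusted p = 0.0675). Of 17 subunits of the proton pump that acidifies the lysosome 3 rose and 3 fell (35.3% called). Atp6v1e1 at 0.47 and Atp6v1g1 at 0.30 led the rises, and Atp6v1b2, which fell by 0.37, led the falls. The mTORC1 list had 3 risen and 3 fallen of 21 (28.6% called, near the share of all genes). Mtor, the kinase itself, rose by 0.30, while its partner subunit Mlst8 fell by 0.26. Lamtor5, part of its anchor on the lysosome, rose by 0.24, while Lamtor3 of the same anchor fell by 0.21. Of the inhibitor complex Tsc1 rose by 0.31 and Tsc2 fell by 0.24. With the mean of probe sets that list counted 1 risen and 5 fallen.

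In the remaining lists calls were split between the directions. Fusion genes rose in 3 and fell in 3 of 17 (35.3% called, against 24.2% of all genes). The syntaxins Stx7 and Stx8 rose by 0.67 and 0.42, and the tethering subunit Vps11 fell by 0.38. Of 16 further hydrolases 1 rose and 2 fell (18.8% called, below the share of all genes). The fucosidase Fuca1 rose by 0.32, the acid DNase Dnase2a fell by 0.73, and Ctsw, a cathepsin of killer lymphocytes, fell by 0.42. Transporters and cholesterol export genes rose in 2 and fell in 1 of 16 (18.8% called, also below that share). Sidt2 rose by 0.33 and Npc1, which hands cholesterol out of the lysosome, by 0.24, while Laptm5, a lysosomal membrane protein of blood cells, fell by 0.65. Adjusted p-values in limma for the genes named in these lists as risen or fallen lay at 0.0414 or below.

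**Figure D5:**
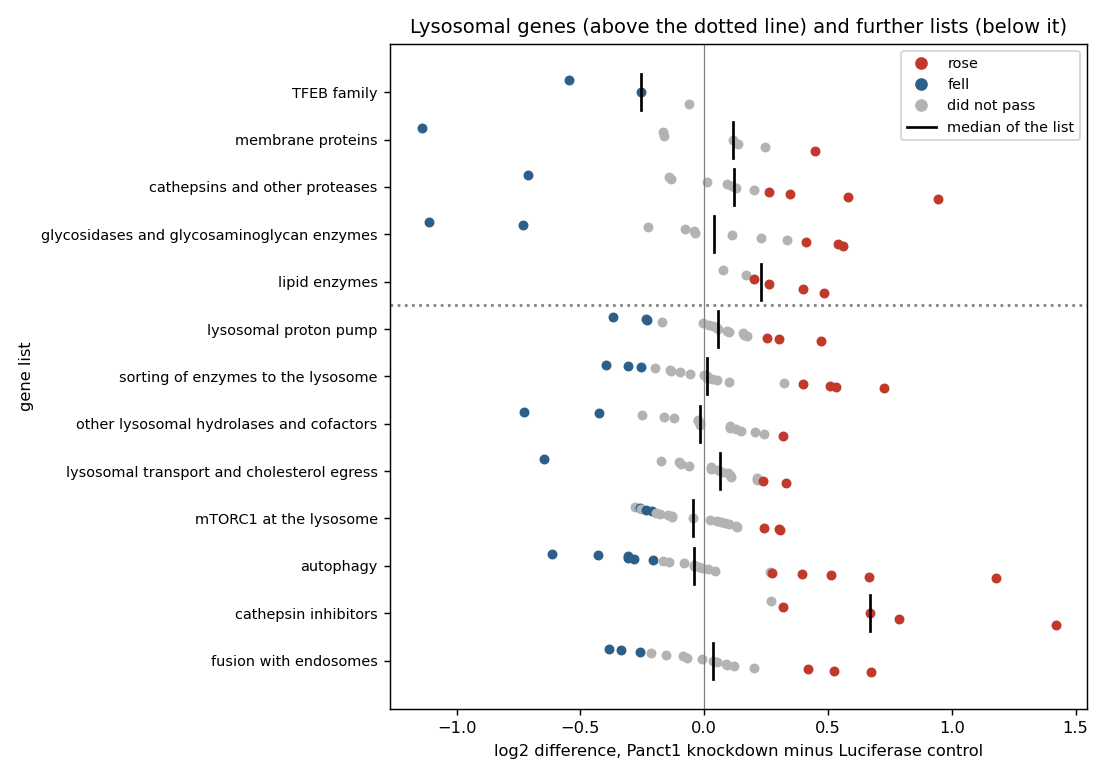
Log2 difference of Panct1 knockdown minus Luciferase control (horizontal axis) for each measured gene of the 5 lysosomal groups, above the dotted line, and of 8 further lists, below it. Red points rose, blue points fell, grey points did not pass and the black bar is the list's median. It is 0.67 for the list labelled cathepsin inhibitors, which mixes cystatins and serpins, and between -0.05 and 0.06 for the other further lists.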

How the data were processed

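The authors deposited log2 RMA signals per probe set, made with GCOS 1.4 and RMA per the submitters' processing notes; RMA corrects background, quantile-normalises arrays and summarises probes. The labels do not say which arrays were normalised together. The table held 45101 probe sets, and 64 control sets were left out. Names came from a platform annotation table (34945 probe sets with 1 gene, 932 with several, 9160 with none listed), updated by gene ID through RefSeq. Groups and replicate numbers came from the sample titles.

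The deposited values were fitted without further scaling in limma 3.58.1 (lmFit, eBayes; R 4.3.3), two-sided, with Benjamini-Hochberg adjustment over 18193 genes, 1 probe set a gene, and a threshold of 0.05. The fit was tested on simulated data. Differences are Panct1 knockdown minus Luciferase control. The number of arrays limits precision. Levels of different probe sets were compared only as list means, as brighter or dimmer, or against the lower quartile. Members and lists were chosen with earlier results of these data known, so no adjustment over a list and no list test was made. Named genes were every measured member, all stem cell markers, some markers of other cells, and the 3 of smallest p in each further list. Cstb, Cst6, Igf2r, Tsc1, Mlst8, Lamtor3 and the placental cathepsins and Tfec were chosen after their values were seen. Deviations from the group means correlated at -0.19, -0.26 and -0.10 for same-numbered arrays of the groups, and at -0.11 to 0.28 for differently numbered ones. With 3 arrays a group such deviations cannot decide whether arrays were prepared in pairs, and the main fit took no pairing.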

Additional observations from a re-analysis of the deposited data

How the results depend on the processing

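Over 17 settings the count of changed genes ran from 1227 with a 1.5-fold minimum to 5730 with array weights, against 4404, and leaving out 1 array gave 3133 to 3986. The 12 risen lysosomal genes became 7 without probe sets ending in _x_at, _s_at or _a_at (32 genes left to test) and 1 with the 1.5-fold minimum, and 7 to 11 without 1 array each. The 6 fallen genes ranged from 4 to 9, and the median difference from 0.08 to 0.15 over 12 settings. With the replicate number as a replicate block, a pairing that was not established, the number of all genes changed was 3496, with 10 lysosomal genes risen and 5 fallen. In that setting 14 of the 18 calls were shared, and Asah1 (limma adjusted p = 0.126), Ctsb (0.0660), Lipa (0.0649) and Tfeb (0.0538) did not pass. Of the 18 calls, 5 were kept in every setting run: Cd68, Manba, Glb1, Ctsf and Ctsc. The 1.5-fold minimum fixed that count, since only these 5 changed that much. Ctsz, Hexa, Mitf, Psap and Smpd1 lost their call only under that minimum. Of these, all but Mitf had no probe set left to test without the suffixed ones. Of 22 genes not called, 8 passed in at least 1 setting in the direction of their main difference. Galc also passed, against its main direction, with the most variable probe set (limma adjusted p = 0.0347). Reversed values were Ctsl at -0.13 without the suffixed probe sets and Galc at -0.32 with the most variable probe set, each read from another probe set. Signals near the lower quartile limit what can be said of Ctss, Galc and Ctso.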

Other observations

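Mice carry a cluster of cathepsin genes used mainly in placenta. This set was added after the results were seen, because trophectoderm markers rose. Of 8 measured genes, Cts3, Cts6, Cts7, Cts8, Ctsj, Ctsm, Ctsq and Ctsr, 0 passed in limma and 0 had an unadjusted p under 0.05. Their differences ran from -0.08 to 0.07. Ctsq averaged 5.30 in Panct1 knockdown and 5.23 in Luciferase control. The other 7 had means below the lower quartile in both groups.

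Tfec, the remaining relative of TFEB, was also below the lower quartile, at 3.73 in knockdown and 3.76 in control, and differed by -0.03 (limma adjusted p = 0.811).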
